A study of Mus musculus with 6 samples.

Results

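The genes described here are the transforming growth factor β (TGF-β) ligands Tgfb1, Tgfb2 and Tgfb3, the receptors Tgfbr1, Tgfbr2 and Acvrl1, the co-receptors Tgfbr3 and Eng, and Nrros, which holds latent ligand at the cell surface. They were picked out by gene symbol. All 9 were among the 41079 genes listed in the data, and all 9 had enough counts to be among the 14618 genes tested. Their RNA was measured in cultured mouse microglia, the resident macrophages of the brain, under 2 culture conditions with 3 RNA-seq libraries each. The microglia came from C57Bl/6N mice aged 1 to 3 days. Brains were pooled in mixed glial flasks with serum-containing medium. The flasks also received L-929 conditioned medium, a source of macrophage colony-stimulating factor. By the study's methods microglia were shaken off the flasks weeks after isolation and seeded anew. Control cells were kept in serum-free DMEM/F12. Cells of the optimized condition received human TGF-β1, human IL-34 and human CX3CL1 at 100 ng/mL each. According to the study's methods they also received cholesterol and insulin-transferrin-selenium and sat on collagen IV, which the sample labels do not name. Both conditions shared the serum in the flasks, gentamicin and a further short contact with serum while the seeded cells settled. All added components changed together, so their parts in any difference cannot be told apart. The study describes its replicates as independent biological ones, and how flasks or harvests were divided among the libraries is not given in the sources used here.

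TGF-β is made as a precursor that the protease furin cuts, and the mature ligand stays wrapped in its own propeptide until it is released, for instance by integrins that pull on it. Anchor proteins decide where this latent form is kept, and on microglia and other myeloid cells NRROS, also called LRRC33, holds latent TGF-β1 on the cell surface. Released ligand binds the type II receptor TGFBR2, which phosphorylates the type I receptor TGFBR1 (ALK5), and TGFBR1 in turn phosphorylates SMAD2 and SMAD3, which enter the nucleus with SMAD4. TGF-β is a main signal by which microglia keep their resting gene expression in the brain, and mice without Nrros have abnormal microglia.

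The libraries held 20628148 to 27261839 counts. Levels are given in CPM, counts scaled to the size of the library. On the second principal component of log2 CPM, optimized replicate 1 stood at 36.5, apart from the other optimized libraries at -24.6 and -13.4, while the controls lay between -9.36 and 10.2. Without it the log2 fold change of Acvrl1 passed the test, that of Tgfbr3 changed from 0.30 to -0.14 and that of Tgfb3 from 0.0090 to -0.33, and the calls of the other 6 genes stayed the same. Of 8 microglial marker genes all were detected, with a summed level of 6355 to 6448 CPM in the controls and 10773 to 12388 CPM in the optimized libraries. The endothelial, mural, fibroblast, astrocyte and neuronal marker lists each summed to under 80 CPM in every library. The fibroblast list reached 78.7 CPM in optimized replicate 3, against 21.3 to 27.8 CPM in the controls. There Col1a1 was at 31.5 CPM, against 11.6 and 8.77 CPM in optimized replicates 1 and 2. None of the 5 fibroblast markers passed the test. Of the oligodendrocyte lineage markers, Cspg4 (means of 31.2 CPM in the controls and 510 CPM in the optimized libraries) and Mbp (94.2 and 119 CPM) passed the test as higher, and Olig2, Sox10 and Mog did not pass. The part of such cells in the results was not tested.

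Under the optimized conditions the type I receptor Tgfbr1 was 3.70-fold higher and Tgfbr2 was 1.27-fold higher. The ligand Tgfb1 was 1.51-fold lower, its anchor Nrros was 2.84-fold lower and the co-receptor Eng was 1.5-fold lower. By the quasi-likelihood test of edgeR, at a Benjamini-Hochberg adjusted p under 0.05, 5 of the 9 genes thus passed, 2 higher and 3 lower, and 4 did not. Among all genes tested, 29.8% passed, 14.7% higher and 15.2% lower. The CPM values of the 2 conditions did not overlap for 5 of the 9 genes, against 43.9% of all genes tested. The median log2 fold change was 0.22 over the 9 genes and 0.0079 over all genes tested. Depth set what could be seen: 6 of the 9 genes had over 100 counts in every library, and Tgfb2, Tgfb3 and Tgfbr3 had under 30 in every library.

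**Figure D1:**
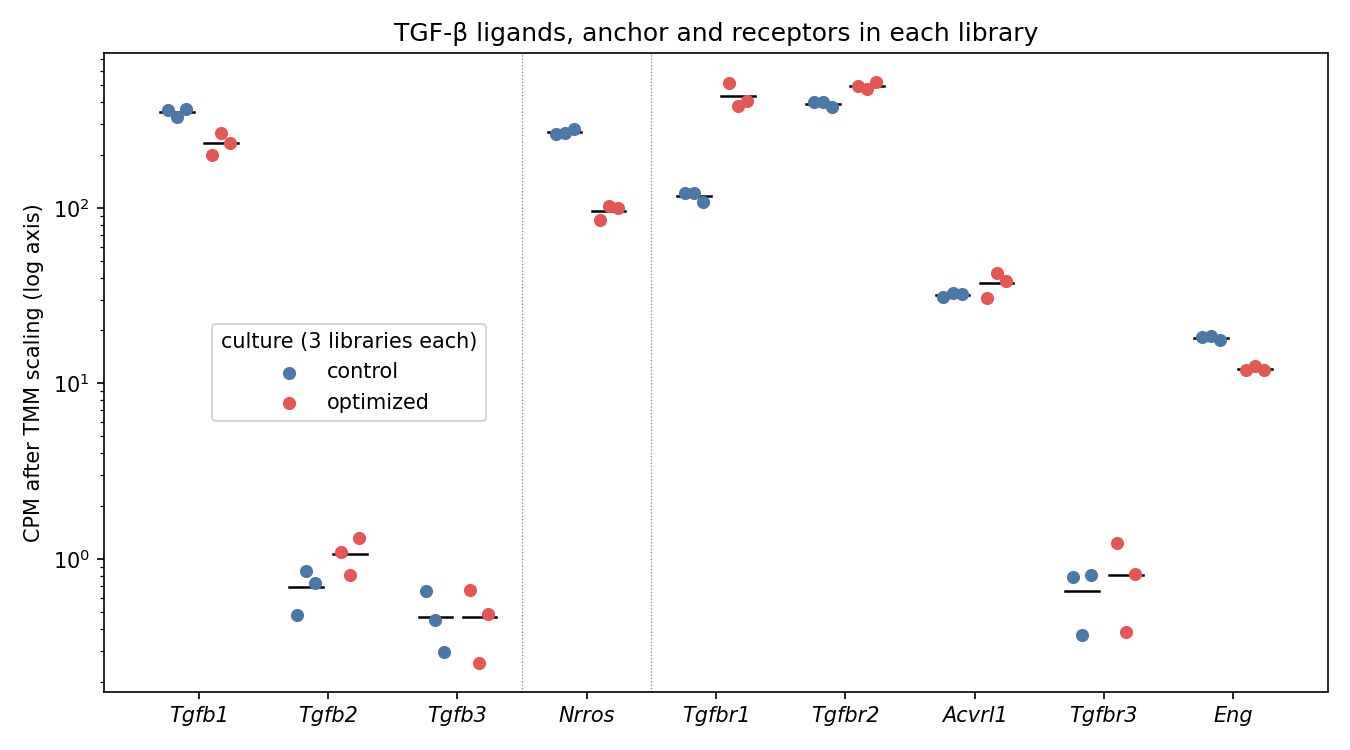
Level of each of the 9 genes in each of the 6 libraries, in CPM after TMM scaling on a log axis, with control libraries in blue, optimized libraries in red and a black line at the mean of 3. Dotted lines part the ligands, the anchor Nrros and the receptors with co-receptors. Tgfbr1 rises from a mean of 117 to 433 CPM and Nrros falls from 271 to 95.4 CPM with no overlap, while Tgfb2, Tgfb3 and Tgfbr3 lie below 1.5 CPM in every library.

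The stretches of genome just before the start of Tgfbr1, Nrros and Tgfb1 are shown because the results on receptor, anchor and ligand turn on these genes. They are the RefSeq promoter windows, each matched to a single place in GRCm39 and printed up to the base before the first annotated exon, 5′ to 3′ on the strand of the gene. Capitals mark matches, on either strand, to CAGAC (a short SMAD-binding motif), AGGAAG (the core bound by PU.1, a myeloid transcription factor) or GGGCGG (the GC box bound by Sp1).
Tgfbr1, chr4:47352972-47353133, plus strand: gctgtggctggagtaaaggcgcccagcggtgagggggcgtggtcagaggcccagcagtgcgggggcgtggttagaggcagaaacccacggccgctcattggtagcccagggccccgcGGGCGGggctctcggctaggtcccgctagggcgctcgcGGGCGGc
Nrros, chr16:31984522-31984662, minus strand: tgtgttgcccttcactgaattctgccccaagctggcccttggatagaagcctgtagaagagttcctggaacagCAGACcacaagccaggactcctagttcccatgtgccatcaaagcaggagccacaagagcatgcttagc
Tgfb1, chr7:25386177-25386389, plus strand: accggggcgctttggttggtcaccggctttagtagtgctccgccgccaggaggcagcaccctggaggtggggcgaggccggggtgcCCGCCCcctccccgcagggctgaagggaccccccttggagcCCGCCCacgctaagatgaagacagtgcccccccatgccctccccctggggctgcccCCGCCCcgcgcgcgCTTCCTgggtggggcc

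Windows of 300 bases, 250 before and 50 after the start, were matched for 6 of the 9 genes. Over all 32851 windows of this length, 49.6% held CAGAC, 35.4% held AGGAAG and 35.7% held GGGCGG, so that each motif is common. The Tgfbr1 window shown held 2 GC boxes, 1 PU.1 core and 0 CAGAC, and a further RefSeq start of Tgfbr1, inside the gene, had 1 CAGAC and 2 PU.1 cores. The Tgfb1 window held 6 GC boxes, 1 PU.1 core and 0 CAGAC. The Nrros window held 1 CAGAC and no match to the other motifs. The windows of Tgfbr1 and Tgfb1 were rich in G and C, at 74.7% and 77.0%, against 59.0% for Nrros. Matches past the first exon base are counted here but not printed above. These matches describe the letters of the windows and no binding was measured.

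Tgfb1, which encodes the main TGF-β ligand of immune cells, lies on chromosome 7 (25386390 to 25404506, plus strand; all gene positions are from GENCODE M39 on GRCm39). Its level was 362, 331 and 364 CPM in control replicates 1 to 3 and 201, 267 and 233 CPM in optimized replicates 1 to 3, from 4245 to 9946 counts per library. Every optimized library was below every control. The means were 352 ± 18.8 and 234 ± 33.0 CPM (SD, n = 3 each). The log2 fold change was -0.59 ± 0.11 (standard error, SE), with a 95% interval from -0.84 to -0.34 (edgeR, adjusted p = 0.0027). The ligand added to the optimized cultures was human protein, while these counts are of RNA assigned to the mouse gene.

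Tgfb2 and Tgfb3, the other two ligands, were barely detected. Tgfb2 (chromosome 1, 186354985 to 186438294, minus strand) had 11, 21 and 20 counts in the controls and 23, 19 and 27 counts in the optimized libraries. These counts overlapped, and its log2 fold change of 0.62 had a 95% interval from -0.18 to 1.41 (adjusted p = 0.24 from edgeR). Tgfb3 (chromosome 12, 86102756 to 86126301, minus strand) had 15, 11 and 8 counts in the controls and 14, 6 and 10 in the optimized libraries. Its log2 fold change of 0.0090 had a 95% interval from -1.08 to 1.10, which leaves room for a change of 2-fold in either direction. Tgfb3 shares 179 bases of exon with Ttll5 on the opposite strand, which had 1212 counts over all libraries against 64 for Tgfb3, and since the strand setting of the counting is not stated its counts are uncertain. In FPKM, a scale that divides fragments by library size and transcript length so that genes can be compared, Tgfb1 made up 99.9% of the summed level of the 3 ligands in the controls and 99.7% in the optimized libraries.

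Nrros, the anchor of latent TGF-β1, lies on chromosome 16 (31960320 to 31984521, minus strand). It stood at 264, 266 and 283 CPM in the controls and at 84.6, 102 and 99.9 CPM in the optimized libraries. The lowest control was above the highest optimized library by more than the whole range within either condition. The means of 271 ± 10.1 and 95.4 ± 9.38 CPM (SD, n = 3 each) gave a log2 fold change of -1.51 ± 0.096 (SE; edgeR, adjusted p = 2.2e-06). The 2.84-fold lower level had a 95% interval of 2.45 to 3.29-fold, and Nrros had rank 375 from the lowest log2 fold change of all genes tested.

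Tgfbr1, the kinase that phosphorylates SMAD2 and SMAD3, lies on chromosome 4 (47353134 to 47414931, plus strand). It had 2767, 2983 and 2965 counts in the controls and 10802, 8946 and 8398 in the optimized libraries. After scaling these were 121, 122 and 109 CPM against 511, 381 and 406 CPM. Optimized replicate 1 was the highest of the 6, and the other optimized libraries were also above every control. The means of 117 ± 7.39 and 433 ± 69.2 CPM (SD, n = 3 each) gave a log2 fold change of 1.89 ± 0.12 (SE; edgeR, adjusted p = 2.4e-06). The 3.70-fold difference had a 95% interval of 3.06 to 4.47-fold, and 98.0% of the genes tested had a lower log2 fold change. Without optimized replicate 1 its log2 fold change was 1.75 and it still passed the test.

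Tgfbr2, the type II receptor that binds the ligand first, lies on chromosome 9 (115913361 to 116004800, minus strand). It was at 398, 398 and 373 CPM in the controls and at 491, 473 and 520 CPM in the optimized libraries, with 9100 to 11099 counts per library. The groups did not overlap, with means of 389 ± 14.6 and 495 ± 23.9 CPM (SD, n = 3 each). The log2 fold change of 0.35 ± 0.085 (SE; edgeR, adjusted p = 0.012) was small beside that of Tgfbr1. It no longer passed when libraries were scaled by their totals alone (log2 fold change 0.22, adjusted p = 0.13), a scaling that moved the median of all genes by -0.13, nor without control replicate 3 or without optimized replicate 3 (adjusted p = 0.068 each). Over all alternatives tried its adjusted p ran from 0.00030 to 0.30.

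Acvrl1 encodes ALK1, a type I receptor best known from endothelial cells, where it responds to BMP9 and BMP10 and signals through SMAD1 and SMAD5. The gene lies on chromosome 15 (101025996 to 101043217, plus strand) and stood at 30.9, 32.5 and 32.2 CPM in the controls and 30.6, 42.4 and 38.5 CPM in the optimized libraries. Optimized replicate 1 was below every control and the other two optimized libraries were above every control. The log2 fold change of 0.22 had a 95% interval from -0.049 to 0.49 and did not pass the test (adjusted p = 0.21 from edgeR). Without optimized replicate 1 the edgeR log2 fold change was 0.35 with an adjusted p of 0.0066. Without optimized replicate 2 it was 0.11 with an adjusted p of 0.53. Leaving out optimized replicate 1 also raised the number of all genes that passed from 4360 to 5234. Over all alternatives the adjusted p of Acvrl1 ran from 0.0066 to 0.75.

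Eng encodes endoglin, a co-receptor of endothelial cells that is also made by macrophages. It lies on chromosome 2 (32535543 to 32574661, plus strand) and was at 18.3, 18.6 and 17.6 CPM in the controls and 11.9, 12.6 and 11.9 CPM in the optimized libraries. The values within each condition were close together and the conditions did not overlap. The means of 18.2 ± 0.51 and 12.1 ± 0.37 CPM (SD, n = 3 each) gave a log2 fold change of -0.58 ± 0.098 (SE; edgeR, adjusted p = 0.0013). Eng shares 860 bases of exon with Fpgs on the opposite strand, and without a stated strand setting their reads there cannot be told apart. Fpgs itself had a log2 fold change of -0.32 that did not pass (adjusted p = 0.065 from edgeR). Tgfbr3 encodes betaglycan, the co-receptor that presents TGF-β2, and lies on chromosome 5 (107249402 to 107437623, minus strand). It had 18, 9 and 22 counts in the controls and 26, 9 and 17 in the optimized libraries, which overlapped (log2 fold change 0.30, 95% interval -0.79 to 1.39).

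**Figure D2:**
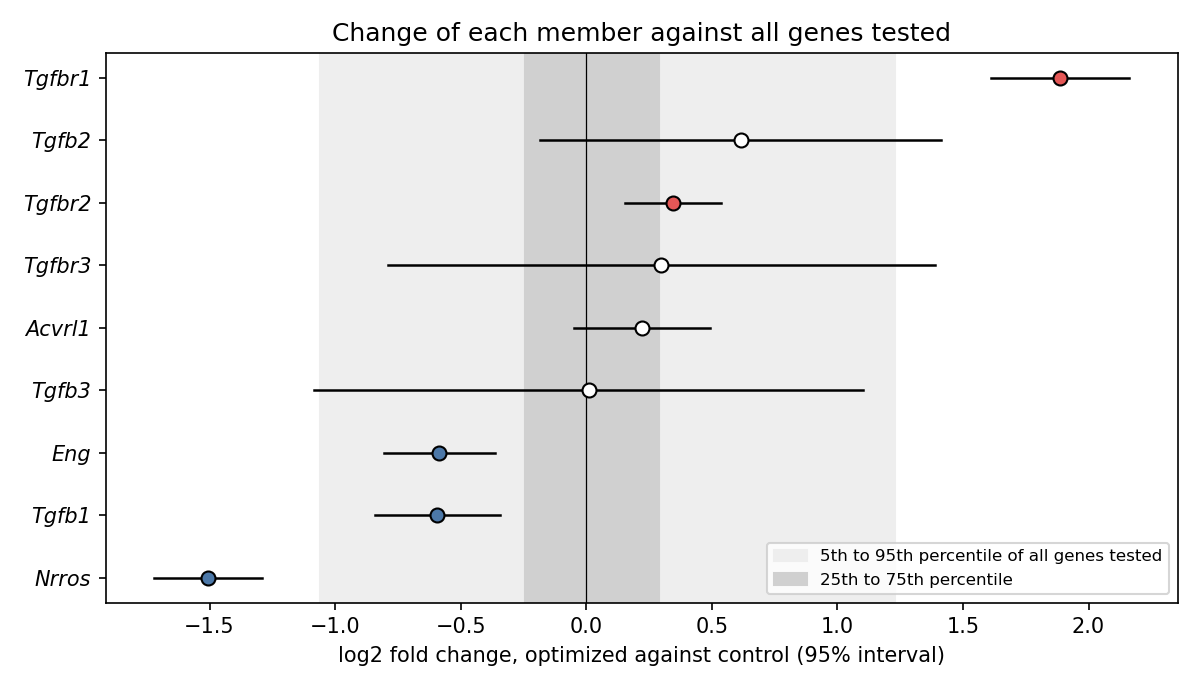
Log2 fold change of each of the 9 genes, optimized against control, from edgeR, with 95% intervals as lines. Red points passed the test as higher, blue points as lower and white points did not pass; the grey bands span the 25th to 75th and the 5th to 95th percentile of all 14618 genes tested. Tgfbr1 at 1.89 and Nrros at -1.51 lie outside the wider band, which runs from -1.06 to 1.23.

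Because Eng and Acvrl1 are also endothelial genes, endothelial markers were measured in the same libraries. Cdh5, Pecam1 and Kdr had means of 0.476 to 3.10 CPM in either condition, below Eng and Acvrl1. The summed level of 8 endothelial markers was 4.72 to 5.31 CPM in the controls and 6.43 to 7.77 CPM in the optimized libraries, and of the 4 markers tested Egfl7 passed as higher. Optimized replicate 1 held some vascular transcripts that the other libraries lacked or nearly lacked. It had 10 counts of Tie1, 2 of Cldn5 and 21 of Emcn among the endothelial markers, and 63 of Des, 37 of Rgs5 and 6 of Kcnj8 among the mural ones, against 0 or 1 in each of the other 5 libraries. Acta2 was also highest there, at 239 counts. The remaining markers of the 2 lists (Cdh5, Pecam1, Kdr, Tek, Egfl7, Pdgfrb and Abcc9) each had a higher CPM in another library. Without optimized replicate 1 the log2 fold change of Eng was -0.57 and still passed (edgeR, adjusted p = 0.00079). Border macrophage markers, genes of the macrophages that line vessels and meninges, summed to 475 to 523 CPM in the controls and 264 to 368 CPM in the optimized libraries. Of the 4 of these 6 markers that could be tested, Mrc1 was lower and Pf4 and F13a1 were higher. The part of vascular cells and border macrophages in the levels of Nrros, Eng and Acvrl1 was not tested, and in bulk RNA fewer cells of a type and less RNA per cell cannot be told apart.

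The order of the 9 genes by FPKM changed between the conditions. That order depends on the gene lengths used for the FPKM, which are not given in the sources used here. In the controls the FPKM values ran from Tgfb1 (163 ± 7.23) through Tgfbr2 (82.7 ± 6.05), Nrros (42.9 ± 0.22), Tgfbr1 (18.7 ± 1.84) and Acvrl1 (8.55 ± 0.34) to Eng (5.18 ± 0.33; SD, n = 3 each). Each of these neighbours was separated from the next in all libraries. In the optimized libraries Tgfb1 (97.7 ± 9.88 FPKM) and Tgfbr2 (95.4 ± 7.71 FPKM) overlapped at the top. Tgfbr1 followed at 63.0 ± 12.3 FPKM and had passed Nrros, at 13.7 ± 1.02 FPKM. Acvrl1 (9.02 ± 1.15 FPKM) and Eng (3.13 ± 0.049 FPKM) came next. Tgfb3, Tgfbr3 and Tgfb2 stood last in both conditions at means of 0.082 to 0.14 FPKM and overlapped each other. Among all genes tested, Tgfbr1 moved from rank 3032 to rank 797 by FPKM, while Nrros moved from rank 1330 to rank 3572.

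Ratios between these genes within a library do not depend on how libraries are scaled. The FPKM ratio of Tgfbr1 to Tgfbr2 was 0.229, 0.230 and 0.219 in the controls and 0.783, 0.606 and 0.588 in the optimized libraries, 2.89-fold higher on average. By FPKM Tgfbr2 thus exceeded Tgfbr1 in all 6 libraries, but by less under the optimized conditions. Which gene is higher depends on the gene lengths used for the FPKM, which are not given in the sources used here. In optimized replicate 1 Tgfbr1 had 10802 counts against 10380 for Tgfbr2. A gene length is the same in every library, so it does not alter the change of a ratio between the conditions. The ratio of Acvrl1 to Tgfbr1, the type I receptors described here, was 0.429, 0.450 and 0.499 in the controls and 0.101, 0.187 and 0.159 in the optimized libraries. That of Nrros to Tgfb1 was 0.25, 0.276 and 0.266 in the controls and 0.144, 0.13 and 0.147 in the optimized libraries. The largest shift was in the ratio of Tgfbr1 to Tgfb1, at 0.115, 0.127 and 0.103 in the controls against 0.878, 0.492 and 0.603. None of these ratios overlapped between the conditions. They are built from the gene levels given above and are not separate evidence of a change. A two-sided exact permutation test gave p = 0.1 for each, which is the smallest p that 3 libraries against 3 allow, and 0.125 after Benjamini-Hochberg adjustment over 5 such measures. The Tgfb1 share of ligand FPKM, the remaining measure, had p = 0.3 in that exact test.

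**Figure D3:**
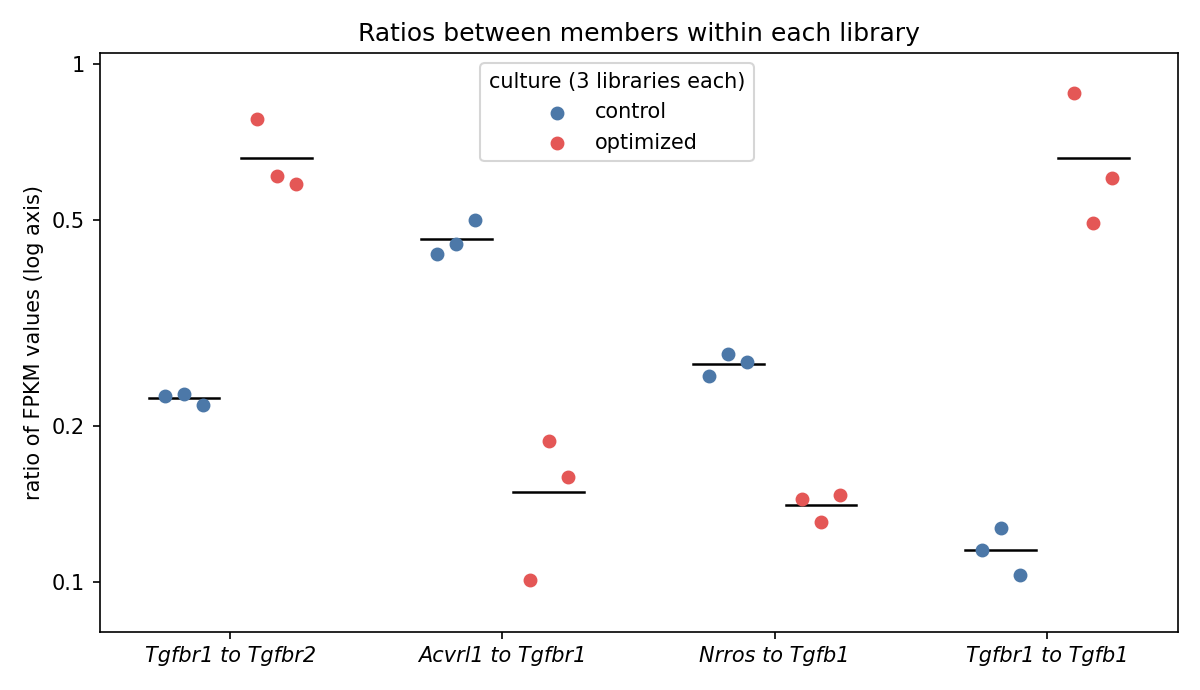
Ratio of the FPKM values of a pair of genes within each library, on a log axis, for 3 control libraries in blue and 3 optimized libraries in red, with a black line at the mean. The Tgfbr1 ratios to Tgfbr2 and to Tgfb1 lie higher in every optimized library, and those of Acvrl1 to Tgfbr1 and of Nrros to Tgfb1 lie lower in every optimized library.

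Tgfbr1 made up 16.2 ± 0.43% of the summed FPKM of the 5 receptor and co-receptor genes in the controls and 36.7 ± 3.97% in the optimized libraries. The share of Tgfbr2 went from 71.8 ± 0.18% to 56.0 ± 2.93% although its own level did not fall. Acvrl1 went from 7.44% to 5.36% and Eng from 4.50% to 1.85%. The summed level itself was 115 ± 8.43 FPKM in the controls and 171 ± 16.9 FPKM in the optimized libraries (SD, n = 3 each). Shares and sums of this kind also depend on the gene lengths used for the FPKM.

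Around these 9 genes, 60 others of the pathway were examined in 5 lists, of which 54 could be tested. There 21 were higher, 8 were lower and 25 did not pass, with a median log2 fold change of 0.20, against 14.7% higher, 15.2% lower and a median of 0.0079 over all genes tested. No list was tested as a group. Values for the genes named here are mean CPM in the controls and the optimized libraries, and log2 fold changes and adjusted p-values are from edgeR.

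Of 13 genes tested that store and activate latent TGF-β, 8 rose, 1 fell and 4 did not pass, beside 14.7% higher and 15.2% lower over all genes, and the median log2 fold change was 1.10. Over the alternatives 5 to 9 were higher and 1 to 2 lower, with 8 higher and 2 lower without optimized replicate 1. Itgb5, an integrin β chain that pairs with αV, had the largest change, from 278 ± 6.32 to 2383 ± 318 CPM (log2 fold change 3.10, adjusted p = 1.5e-07). Its partner Itgav rose from 112 to 269 CPM and Furin, the protease that cuts the precursor, from 97.7 to 210 CPM. The latent TGF-β binding protein Ltbp3 rose from 31.9 to 55.1 CPM, and Thbs1, a matrix protein that can activate latent TGF-β, from 26.6 to 43.4 CPM. Itgb3 also rose, as did Ltbp2 and Ltbp4 at low levels of at most 3.02 CPM on average. Ltbp2 had 23, 9 and 26 counts in the controls and 49, 28 and 115 in optimized replicates 1 to 3. The CPM values of Ltbp4 overlapped between the conditions (adjusted p = 0.047 from edgeR). Without optimized replicate 3 the list had 6 higher and 1 lower, as it did without any single control library. Mmp14, a membrane protease, fell from 132 to 76.1 CPM. Itgb1 had 562 and 493 CPM and did not pass (log2 fold change -0.19, adjusted p = 0.12). Itgb8, whose product with αV releases TGF-β1 in the brain, had 1.60 and 1.33 CPM and did not pass (adjusted p = 0.69). Lrrc32, the closest relative of Nrros among the anchors, averaged 0.67 and 0.37 CPM, and Itgb6 had 0 counts, so neither was tested.

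Other membrane proteins that bind TGF-β or its receptors went both ways, 3 higher and 2 lower of 8 tested (2 higher and 3 lower with library size alone), with a median log2 fold change of 0.27. Bambi, a decoy receptor without a kinase, rose from 12.5 to 68.5 CPM (log2 fold change 2.45, adjusted p = 4.5e-07), and Cd109, a membrane protein that binds TGF-β, had a log2 fold change of 0.51 (adjusted p = 0.026). Lrg1 had the largest log2 fold change at 3.47, but at under 1 CPM on average in both conditions. The neuropilins Nrp1 and Nrp2, receptors for semaphorins and growth factors, fell from 466 to 241 CPM and from 585 to 302 CPM. Rgmb had 56.3 and 48.2 CPM and did not pass (adjusted p = 0.075). Of the 8 tested, 62.5% passed, against 29.8% of all genes tested.

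Of the other type I and type II receptors of the family, which bind BMPs and activins, Bmpr2 rose from 54.1 ± 10.4 to 128 ± 37.7 CPM (log2 fold change 1.24, adjusted p = 0.0012). It was the sole receptor of 6 tested to pass, 16.7% against 29.8% of all genes tested, and the median log2 fold change was 0.20. With limma on log2(FPKM + 1) it did not pass (adjusted p = 0.068) and Acvr1b passed as lower (adjusted p = 0.048). Acvr1b, the activin receptor closest to Tgfbr1, had 38.8 and 37.7 CPM and a log2 fold change of -0.042 (adjusted p = 0.76). Without optimized replicate 1, or without optimized replicate 2, 2 of these receptors passed.

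Among 17 genes that modify, traffic or degrade the receptors, 5 rose, 3 fell and 9 did not pass, with a median log2 fold change of -0.0043. This balance turned over with the scaling, to 3 higher and 5 lower with library size alone and to 3 higher and 4 lower with limma at a mean FPKM of at least 1. Those that rose were Pmepa1, Smad7, Cav1, Smurf1 and Smurf2. PMEPA1 and SMAD7 are feedback inhibitors, and the SMURF ubiquitin ligases act with SMAD7 on the receptor. Pmepa1 had a log2 fold change of 4.56 and Smad7 went from 7.14 to 42.8 CPM, while Smurf1 and Smurf2 had log2 fold changes of 0.47 and 0.28. Dab2, an endocytic adaptor that binds the receptors, fell from 748 ± 10.4 to 373 ± 26.4 CPM (log2 fold change -1.0, adjusted p = 2.1e-05), and Zfyve16 and Wwp1 fell by less. Tgfbrap1, Strap, Fkbp1a, Usp4 and Usp15 had log2 fold changes between -0.17 and 0.14 and did not pass. The 8 that passed were 47.1% of the list, against 29.8% of all genes tested. The count of 8 was 4 without control replicate 1 or without optimized replicate 3, and 5 without control replicate 2.

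Of the SMADs and their corepressors 4 of 10 tested rose, 2 fell and 4 did not pass (3 higher and 3 lower with library size alone), with a median log2 fold change of 0.23. The genes that rose encode inhibitors or repressors. Smad6, an inhibitory SMAD, went from 1.22 to 11.4 CPM (log2 fold change 3.22), Skil from 43.2 to 180 CPM, Ski from 97.8 to 312 CPM and Tgif1 from 90.9 to 116 CPM (log2 fold change 0.36). Smad3, which TGFBR1 phosphorylates, fell from 40.2 to 27.4 CPM (log2 fold change -0.55, adjusted p = 0.0026), and Smad1, which ALK1 and the BMP receptors phosphorylate, fell from 22.6 to 16.4 CPM (log2 fold change -0.46, adjusted p = 0.0062). Smad2 (43.7 and 37.1 CPM, adjusted p = 0.074) and Smad4 (53.3 and 52.1 CPM, adjusted p = 0.86) did not pass. Of the 10 tested, 60% passed, against 29.8% of all genes tested.

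**Figure D4:**
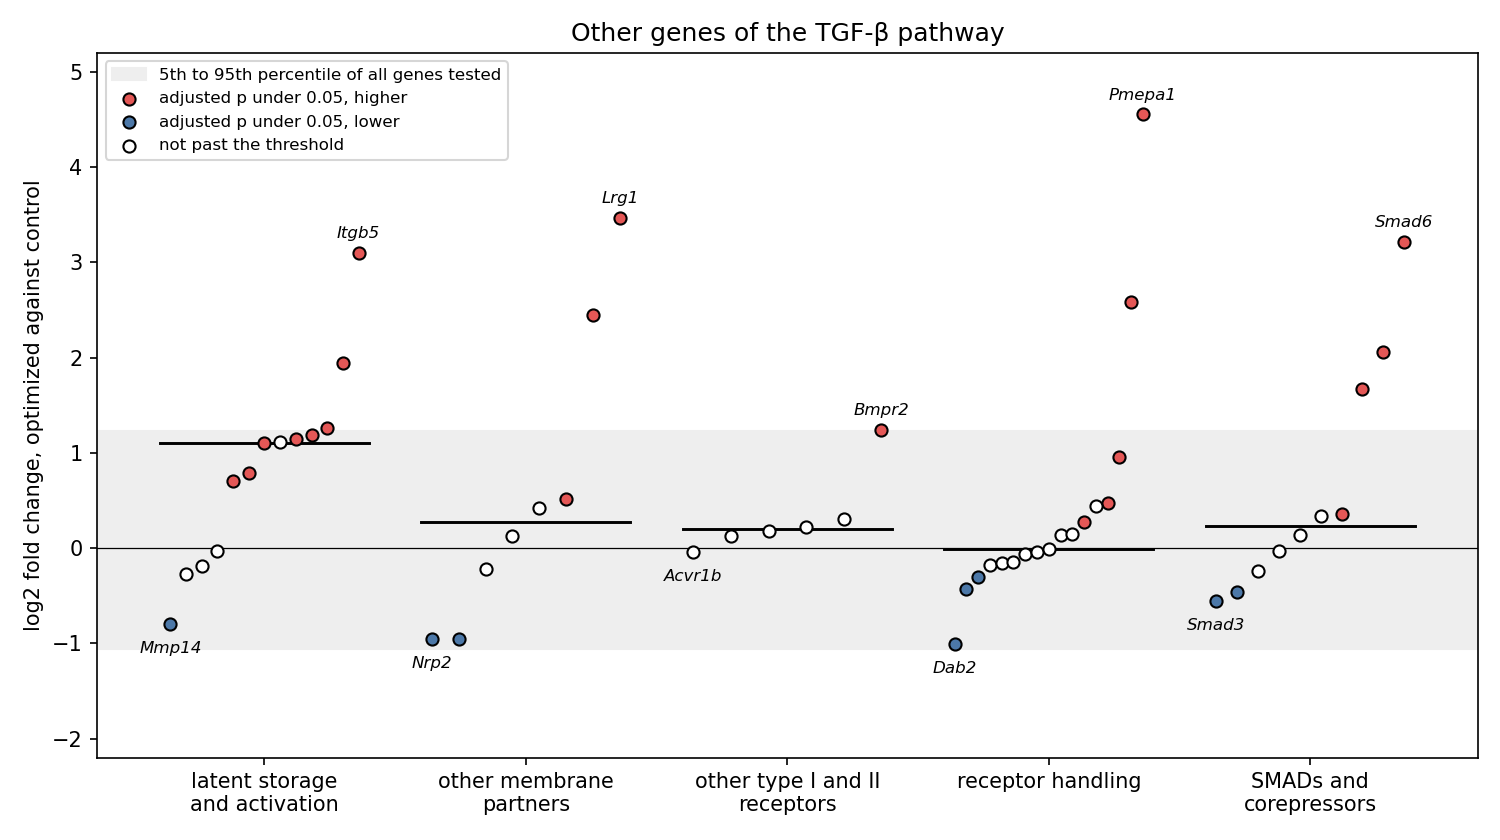
Log2 fold change, optimized against control, of the 54 tested genes in 5 lists of the TGF-β pathway, sorted within each list, with red for higher, blue for lower and white for not past the threshold, a black line at the list's median and a grey band for the 5th to 95th percentile of all genes tested. The latent storage and activation list has the highest median, at 1.10, and the extreme genes of each list are named.

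Over the 6 libraries the genes whose pattern was most like that of Tgfbr1 were Etl4, Ivns1abp, Eeig2, Inf2 and Mical2. Likeness was the root mean square difference in log2 CPM after centring each gene on its own mean, and these 5 were at 0.044, 0.051, 0.070, 0.079 and 0.080. Of 9833 genes compared, 9 were within 0.1 of Tgfbr1. Etl4 stood at 17.5, 16.7 and 15.7 CPM in the controls and 71.7, 52.5 and 54.1 CPM in the optimized libraries, with the highest value in optimized replicate 1, as for Tgfbr1. These likenesses rest on 6 libraries in 2 conditions and describe the values only.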

How the data were processed

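RNA of 3 control and 3 optimized microglia cultures was sequenced with paired ends. The authors aligned reads with HISAT2 to the mouse build mm39 (GRCm39), used featureCounts for counting and deposited raw counts per gene and a table of FPKM values. Versions, annotation, gene lengths and strand setting are not given in the sources used here. In the deposited FPKM each value is the count divided by a gene constant and a library constant.

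Libraries were grouped by their labels. Counts were fitted with edgeR 4.0.16 in R 4.3.3 (filterByExpr, TMM factors, quasi-likelihood test, no covariates), with p-values adjusted over all 14618 genes tested. The coefficient of variation between replicates was 0.128. CPM in the text are after TMM scaling. The standard error is the log2 fold change divided by the square root of F. FPKM served for levels between genes and ratios.

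The 9 genes and the pathway lists were chosen with earlier results of these data known. Named list genes are the extremes that passed in each direction and those of at least 50 CPM. The other list genes named (Itgb3, Itgb8, Ltbp2, Ltbp4, Lrrc32, Itgb6, Acvr1b, Smad2, Smad7, Cav1 and Zfyve16) were chosen after their values were seen. Alternatives were RLE factors, library size alone, DESeq2 1.42.0, 2 filters, the replicate block, leaving out libraries, and limma 3.58.1 on log2(FPKM + 1) and log2(FPKM + 0.1). Fold changes on these scales understate the change of low genes. The edgeR step was tested on simulated data.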

Additional observations from a re-analysis of the deposited data

How the results depend on the processing

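Tgfbr1, Nrros, Tgfb1 and Eng kept their direction and passed the threshold under all 16 alternatives each, with adjusted p from 1.4e-48 to 0.0024, 4.0e-46 to 0.00043, 6.4e-06 to 0.016 and 0.00013 to 0.0099. Tgfbr2 did not pass with library size alone (log2 fold change 0.22) or with limma on log2(FPKM + 1) (0.20), on log2(FPKM + 0.1) (0.21) or at a mean FPKM of at least 1 (0.20), and ran from 0.31 to 0.37 with single libraries left out. Library size alone moved the median of all genes by -0.13 and limma on FPKM by -0.095 to -0.14. Of the genes that passed, 49.1% were higher in the main analysis, against 32.3% with library size alone, 32.2%, 35.7% and 28.8% with the limma settings. Acvrl1 ran from 0.11 to 0.35 with libraries left out, and passed at 0.32 (adjusted p = 0.024) without both replicate 1 libraries, an alternative chosen after seeing the data, in which 6 of the 9 genes passed. Leaving out single libraries left 4 to 6 passing. Tgfb3 changed sign with library size alone (-0.11), without the filter (-0.014), with the replicate block (-0.0052), with limma (-0.015 and -0.080), without both replicate 1 libraries (-0.014) and with single libraries left out (-0.33 to 0.32), and Tgfbr3 ran from -0.14 to 0.64; the low counts limit both. With at least 10 counts in every library Tgfb3 and Tgfbr3 could not be fitted, nor could they or Tgfb2 at a mean FPKM of at least 1. The change in the Tgfb1 share of the ligands was -0.12 percentage points from FPKM and -0.35 from counts, which weight genes by length, and -0.073 from FPKM without optimized replicate 1. Of the other type I and II receptors 1 to 2 passed with libraries left out, 0 with limma on log2(FPKM + 0.1), 1 with limma on log2(FPKM + 1), as lower, and 2 without both replicate 1 libraries. Of the receptor handling genes 4 to 8 passed with libraries left out, 4 with limma on log2(FPKM + 1) and 3 on log2(FPKM + 0.1). Same-numbered libraries correlated at 0.27, -0.012 and 0.18 in their deviations from the group means, and differently numbered ones at -0.29 to 0.19. Whether same-numbered libraries were paired is not given in the sources used here and was not tested. With the replicate block 5 of the 9 genes passed, as without it, and 4924 genes in all against 4360.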
